A study of Mus musculus with 9 samples.

Results

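The RNA of 9 genes that end or resemble actin filaments was followed in testes of mice with and without Tmem203: the tropomodulins Tmod1, Tmod2, Tmod3 and Tmod4, the capping protein genes Capza1, Capza2 and Capzb, and the actin-like genes Actl7a and Actl7b. These genes were chosen by name after the fall of Tmod4 in the same samples was known, so the Tmod4 values below are a description without a test, and the other members' values support nothing about the group. The members are all 23 probe sets annotated to a single one of these genes, of 45037 probe sets on the arrays. No further probe set named one of them together with another gene. Of the 23, 21 reached a log2 signal of 5 on at least 1 array and 2 did not, 1 each for Tmod2 and Tmod3. Each sample is testis RNA of a 24-week-old mouse on its own Affymetrix array, 4 of them wild type (WT) and 5 Tmem203 null. The null line was made from C57BL/6 embryonic stem cells in C57BL/6J blastocysts, and was later crossed to Flpe deleter mice. Null mice carry in every cell an allele without the start codon of Tmem203, which encodes a membrane protein of the endoplasmic reticulum, and keep a short vector remnant with an FRT site that WT mice lack. The tissue was untreated in both groups. A probe set is a group of short oligonucleotides summarised into 1 value, here a log2 signal normalised by Robust Multichip Average (RMA), on which a step of 1 is a doubling.

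Actin filaments have a fast-growing barbed end and a slow-growing pointed end. Tropomodulins close the pointed end, most tightly where the filament is coated with tropomyosin: Tmod1 is known from red blood cells and heart, Tmod2 from neurons, Tmod3 from most tissues and Tmod4 from skeletal muscle fibres. Capping protein closes the barbed end as a heterodimer of an alpha subunit, from Capza1, Capza2 or Capza3, and the beta subunit of Capzb. Capza3 is not among the members and is read below with other barbed-end cappers. In the testis, actin filaments surround the head of the elongating spermatid on the Sertoli cell side and lie beneath the acrosome on the spermatid side. Actl7a and Actl7b are actin-like genes of male germ cells, whose proteins are found in the head of the spermatid.

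The sequence before the transcription start is shown for Tmod4, whose RNA differed most, and for the adjacent genes Actl7a and Actl7b, which face away from each other. The 250 bases before each RefSeq start were read 5′ to 3′ on the gene's own strand of GRCm38.p6, at chr3:95124264-95124513 (plus strand) for Tmod4, chr4:56743172-56743421 (plus strand) for Actl7a and chr4:56741426-56741675 (minus strand) for Actl7b. Capitals mark the E-box letters CANNTG in Tmod4, and in Actl7a and Actl7b the letters TGATGTCA or their reverse complement.
Tmod4: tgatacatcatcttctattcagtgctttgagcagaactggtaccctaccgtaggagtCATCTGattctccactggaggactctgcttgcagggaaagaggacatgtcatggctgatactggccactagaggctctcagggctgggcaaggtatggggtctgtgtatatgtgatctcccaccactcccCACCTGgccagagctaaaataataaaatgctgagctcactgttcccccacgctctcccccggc
Actl7a: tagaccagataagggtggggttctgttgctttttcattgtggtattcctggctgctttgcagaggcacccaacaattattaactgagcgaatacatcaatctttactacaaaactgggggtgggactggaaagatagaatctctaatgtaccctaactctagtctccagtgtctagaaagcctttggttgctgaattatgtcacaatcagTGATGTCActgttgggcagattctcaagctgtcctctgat
Actl7b: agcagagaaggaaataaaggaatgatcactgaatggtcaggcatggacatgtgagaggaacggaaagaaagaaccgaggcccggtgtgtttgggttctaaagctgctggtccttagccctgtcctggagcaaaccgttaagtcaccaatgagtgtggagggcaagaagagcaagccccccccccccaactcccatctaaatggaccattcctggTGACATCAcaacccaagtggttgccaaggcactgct
The table of promoters held 9 windows for 8 of the 9 genes, 2 of them for Tmod2, and none for Tmod3. Motifs were sought on both strands in windows of 300 bases, 250 before and 50 after the start. The cAMP response element TGACGTCA, the site of CREM and CREB factors, was present in 1.79% of 32851 windows of all genes and in no window of the members. The variant TGATGTCA, chosen after these windows had been read, was present in 3.62% of all windows. It began 40 bases before the start of Actl7a and, on the opposite strand, 36 bases before that of Actl7b. The starts of these neighbours lie 1997 bases apart. The E-box, bound by basic helix-loop-helix factors, is so short that 72.3% of all windows held one. In Tmod4 it was read as CATCTG from 193 bases and as CACCTG from 63 bases before the start. The letters TATAAA were present in 13.6% of all windows and in none of the members. A match of letters is no evidence of binding.

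The labels were checked first. Tmem203, read by 1 probe set, had a mean log2 signal of 9.81 ± 0.13 for WT (SD, n = 4) and of 9.11 ± 0.03 for null samples (SD, n = 5). The groups did not overlap and differed by -0.70 (standard error 0.06). Whether this probe set lies inside the deleted stretch could not be read from the sources used here. Array medians lay between 6.96 and 7.05, and the median log2 fold change over all probe sets was -0.01. Testes of both sides were collected one by one, and the labels do not say that each array is another animal, so the spread between samples may be partly technical. In whole testis RNA, fewer cells of a type and less RNA per cell cannot be told apart.

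Tmod4, the muscle-type tropomodulin, was the 1 member that differed clearly. Its probe set, 1449969_at, had log2 signals of 9.25, 8.96, 9.33 and 9.29 in WT replicates 1 to 4. In null replicates 1 to 5 it had 7.24, 7.57, 7.67, 7.22 and 7.52. The groups did not overlap, with a gap of 1.29 between the lowest WT and the highest null value, or 2.44-fold. The WT mean was 9.21 ± 0.17 (SD, n = 4) and the null mean 7.44 ± 0.20 (SD, n = 5). The log2 fold change was -1.76 (standard error 0.11, 95% interval -2.01 to -1.51), so that null testes had 29.5% of the WT signal. Under the alternatives run, each array left out included, it lay between -1.85 and -1.71. Among falls of single-gene probe sets above the detection limit it ranked 8th. Tmod4 is read by this 1 probe set, so there is no other reading of its RNA on the arrays. Its place relative to the overlapping gene Vps72 could not be checked here, so whether part of the signal, that of null samples included, reads Vps72 was not tested. The remaining signal of null samples was still above the detection limit of 5.

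**Figure D1:**
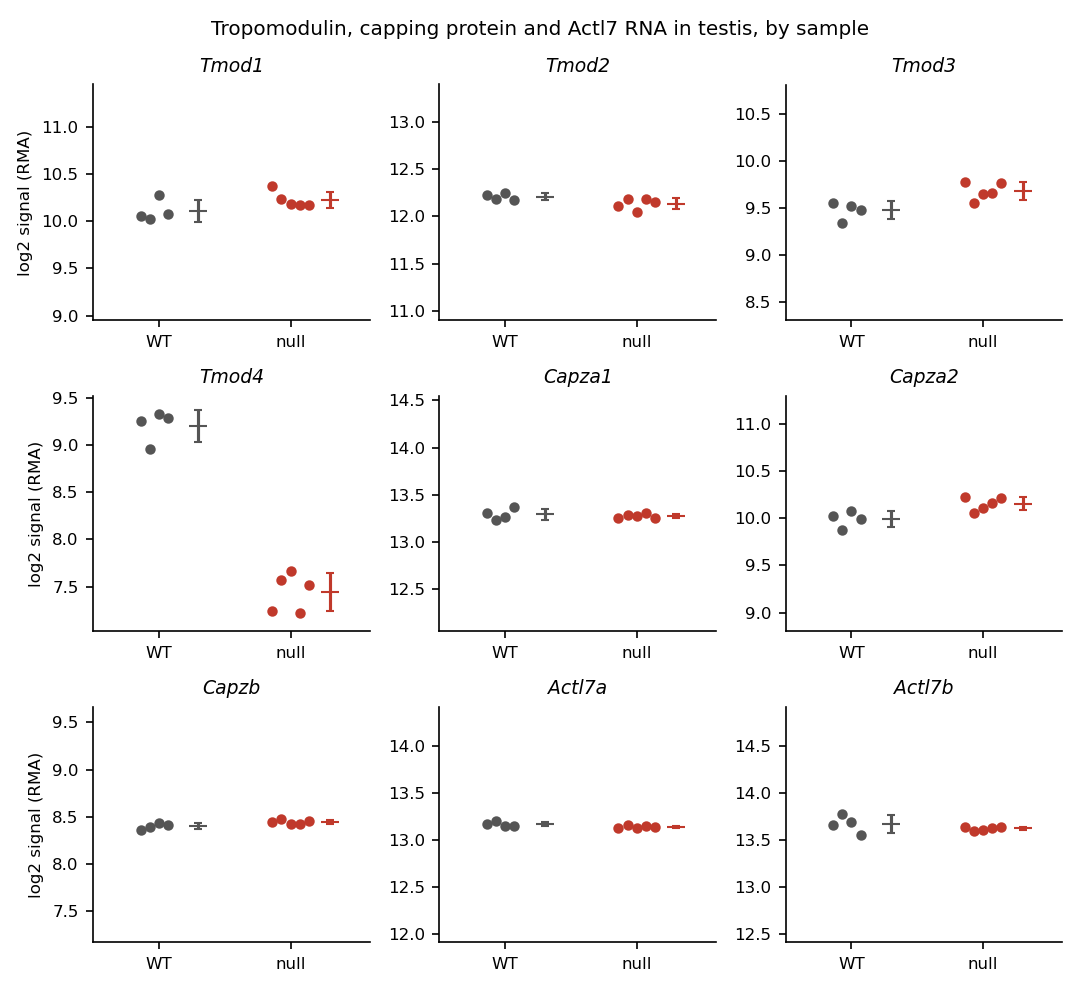
Log2 signal (RMA) of the 9 genes in each sample, with 4 WT samples in grey and 5 null samples in red, and the mean and SD to the right of each group; each gene is shown by its probe set with the smallest p, and every panel spans the same range of 2.5 log2 units. The groups stand apart for Tmod4, at 8.96 to 9.33 in WT and 7.22 to 7.67 in null samples, and overlap in the other panels.

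None of the other tropomodulins passed an adjusted p under 0.05 (limma, Benjamini-Hochberg over all probe sets). Tmod1, the tropomodulin of the red cell membrane, had log2 signals of 10.06, 10.03, 10.28 and 10.08 in WT and 10.37, 10.23, 10.18, 10.17 and 10.18 in null samples. WT replicate 3 lay above 4 of the 5 null samples, and the difference was 0.12 (95% interval -0.04 to 0.27, adjusted p = 0.347). Tmod3, the tropomodulin of most cell types, came nearest to the threshold. Its probe set 1423088_at had 9.56, 9.34, 9.52 and 9.48 in WT and 9.78, 9.56, 9.65, 9.66 and 9.76 in null samples. The lowest null value lay just under the highest WT value, with a log2 fold change of 0.20 (95% interval 0.06 to 0.35, adjusted p = 0.0915). The other 3 detected probe sets of Tmod3 did not give the same size, at 0.18 (1438556_a_at), 0.09 (1423089_at) and -0.01 (1455708_at). Tmod2, the neuronal form and the neighbour of Tmod3 in gene order, was read by 6 probe sets, all with slightly lower means in null samples, from -0.12 to -0.04. The brightest of them, 1431326_a_at, had 12.23, 12.19, 12.25 and 12.18 in WT and 12.11, 12.18, 12.05, 12.18 and 12.15 in null samples. Its groups overlapped at WT replicate 4, and the difference was -0.07 (95% interval -0.18 to 0.03, adjusted p = 0.402). Probe sets of a gene share its transcripts and are not independent readings. The dim probe sets of Tmod2 and Tmod3 that stayed under the detection limit, 1439223_at and 1439626_at, had differences of -0.10 and 0.00.

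The capping protein genes gave no call and had narrow intervals. Capza1, an alpha subunit of most cells, had log2 signals of 13.31, 13.24, 13.27 and 13.37 in WT and 13.26, 13.29, 13.27, 13.31 and 13.25 in null samples for 1452038_at. The null values lay inside the range of the WT values, and the difference was -0.02 (95% interval -0.12 to 0.08, adjusted p = 0.839). A second Capza1 probe set, 1439455_x_at, whose ending marks possible cross-hybridisation, differed by -0.00 (adjusted p = 0.994). Capza2, another alpha subunit, had 10.02, 9.88, 10.07 and 9.99 in WT and 10.22, 10.06, 10.11, 10.16 and 10.21 in null samples for 1423057_at. Its groups overlapped only at null replicate 2 and WT replicate 3. The difference was 0.16 (95% interval 0.03 to 0.29, adjusted p = 0.127). The other Capza2 probe set, 1423058_at, differed by 0.03 (95% interval -0.08 to 0.14, adjusted p = 0.736). The 4 probe sets of Capzb, the beta subunit that every heterodimer needs, differed by 0.00 to 0.05, with adjusted p from 0.563 to 0.966. Of these, 1431668_at had the largest difference, with means of 8.40 ± 0.03 for WT (SD, n = 4) and 8.45 ± 0.02 for null samples (SD, n = 5), and with WT replicate 3 inside the null range.

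Actl7a and Actl7b, the actin-like genes of spermatids, differed by less than 0.05. Actl7a had log2 signals of 13.17, 13.20, 13.15 and 13.15 in WT and 13.13, 13.15, 13.12, 13.15 and 13.14 in null samples. The values touched at 13.15, and the log2 fold change was -0.03 (95% interval -0.13 to 0.06, adjusted p = 0.706). Actl7b had 13.65, 13.77, 13.69 and 13.55 in WT and 13.64, 13.60, 13.60, 13.63 and 13.64 in null samples. The null samples lay within the WT range and closer together, at 13.62 ± 0.02 (SD, n = 5) against 13.67 ± 0.09 (SD, n = 4), and the log2 fold change was -0.05 (95% interval -0.17 to 0.07, adjusted p = 0.647). Such high signals on an array can be compressed, which was not tested. Beside these values, none of 10 measured markers of round spermatids and none of 12 of elongating spermatids passed. Over all measured genes 8.03% were higher and 6.82% lower, and at such shares lists this short can hold none. The mean of the round spermatid list ranged from 12.97 to 13.11 in WT and from 12.92 to 13.01 in null samples. That of the elongating spermatid list ranged from 14.05 to 14.07 in WT and from 14.02 to 14.06 in null samples. Their part in the values of Actl7a and Actl7b was not tested.

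Counted together, 1 of the 23 member probe sets, that of Tmod4, passed an adjusted p under 0.05, where 7.48% of all probe sets passed in either direction. The same probe set was the 1 member that also changed at least 1.5-fold, where 1.1% of all probe sets were called on fold, signal and a single gene. It was the 1 member whose groups did not overlap, where the groups of 11.8% of all probe sets did not. Since this contrast chose the members, nothing is read from these shares. The other 22 probe sets had log2 fold changes from -0.12 to 0.20, 11 with a lower and 11 with a higher mean in null samples, and standard errors from 0.04 to 0.12. At an unadjusted p under 0.05, 2 of the 22 passed, 1423088_at of Tmod3 and 1423057_at of Capza2. All 22 had a 95% interval within 1.5-fold in either direction, with ends between -0.36 and 0.37, as had 91.9% of all probe sets.

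**Figure D2:**
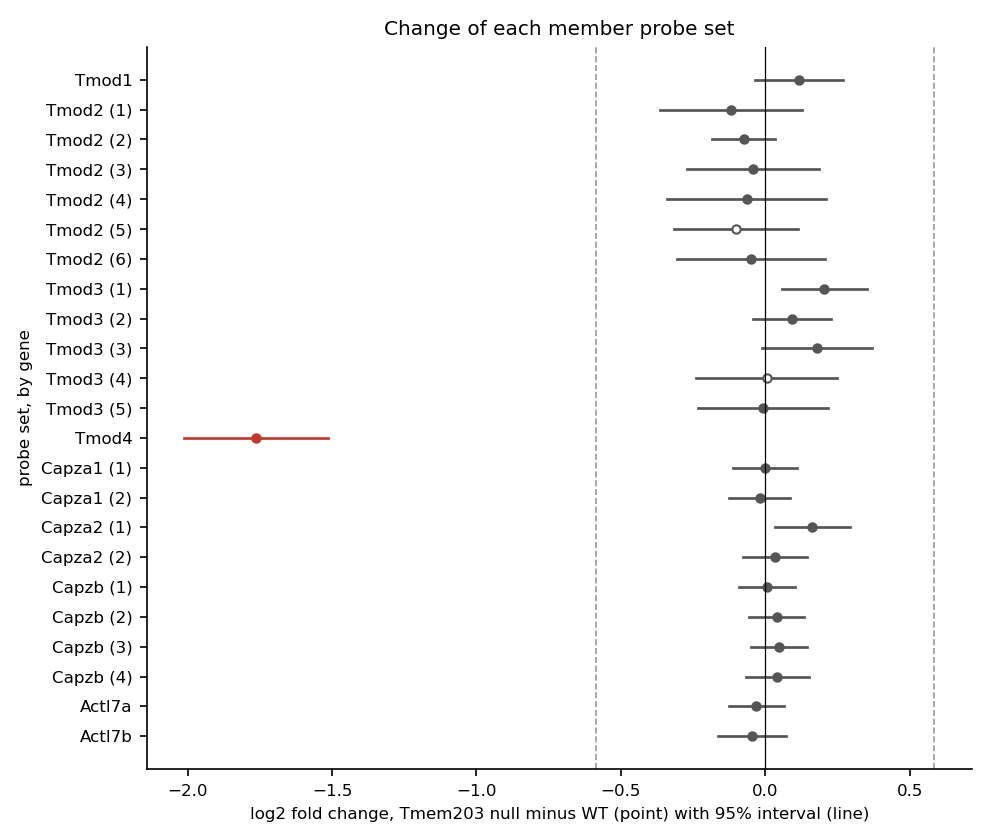
Log2 fold change (null minus WT, n = 5 and 4) of the 23 member probe sets as points, with 95% intervals as lines, and dashed lines at a change of 1.5-fold; numbers in brackets count the probe sets of a gene in order of their identifiers, and open points mark the 2 under the detection limit. Tmod4 lies at -1.76, and the other 22 lie between -0.12 and 0.20 with intervals inside the dashed lines.

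The genes next to Tmod4 in the RefSeq gene order were read beside it. Vps72, a subunit of chromatin remodelling complexes whose gene overlaps that of Tmod4, had log2 signals of 9.46, 9.65, 9.46 and 9.31 in WT and 9.29, 9.34, 9.17, 9.23 and 9.29 in null samples. WT replicate 4 lay inside the null range, and the difference was -0.20 (standard error 0.07, adjusted p = 0.114). Scnm1, a splicing factor gene on the other side, had 11.74, 11.83, 11.80 and 11.73 in WT and 11.70, 11.68, 11.70, 11.66 and 11.64 in null samples. Its groups did not overlap, but the difference of -0.10 (standard error 0.05) had an adjusted p of 0.228. Lysmd1, the next gene, differed by -0.13 (standard error 0.06, adjusted p = 0.264). Gm22301, beyond Vps72, was not analysed here. None of these 3 neighbours passed the test, and each had a lower mean in null samples.

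**Figure D3:**
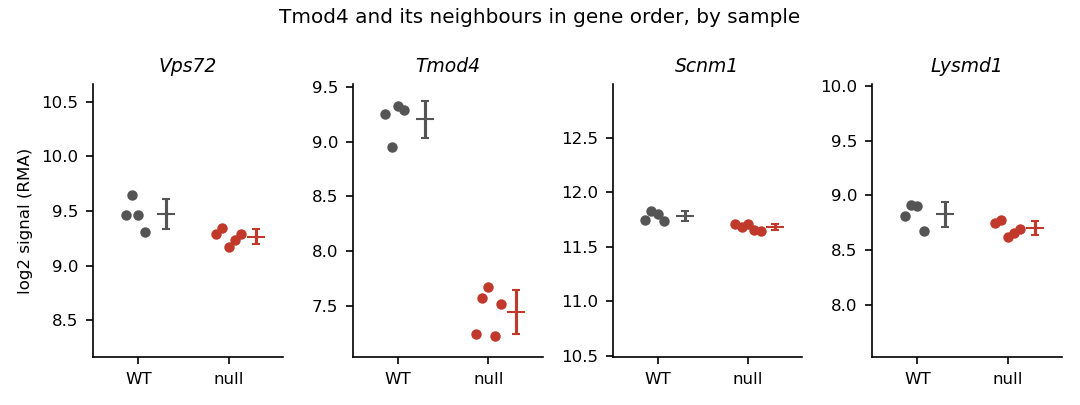
Log2 signal (RMA) of Tmod4 and of the measured genes beside it, in gene order, for 4 WT samples in grey and 5 null samples in red with mean and SD, each panel spanning 2.5 log2 units. Tmod4 differs by -1.76, against -0.20 for Vps72, -0.10 for Scnm1 and -0.13 for Lysmd1.

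The 5 genes whose signal followed that of Tmod4 most closely over the 9 arrays were all lower in null samples. They were named by Pearson's r among single-gene probe sets above the detection limit, as a description. Arrays of 1 genotype share their level, so the value after subtraction of the genotype means is given too. Calml4, a calmodulin-like gene, had r = 0.995 over all 9 arrays and 0.85 within genotypes. Ptp4a3, a protein tyrosine phosphatase, had 0.992 and 0.75, and Grin2b, an NMDA receptor subunit, had 0.992 and 0.88. Pdap1, whose product binds PDGF, had 0.992 and 0.89, and Elmo3, of the engulfment and cell motility family, had 0.992 and 0.74. Their log2 fold changes were -1.30 for Calml4, -0.95 for Elmo3, -0.90 for Ptp4a3, -0.83 for Grin2b and -0.35 for Pdap1. A likeness to Tmod4 fixed these directions, so no test is given.

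The partners of these genes on the filament were read through 12 gene lists, each gene by its probe set with the smallest p. Of 165 listed genes 149 were measured, and 15 of these were higher and 10 lower at an adjusted p under 0.05, while 124 missed it. Over all 16180 measured genes, 8.03% were higher and 6.82% lower. The counts of single lists given below stand beside these same shares and were not tested against them. The median log2 fold change was 0.01 over the listed genes and -0.03 over all genes. Read through each gene's brightest probe set, 12 were higher and 10 lower. With the replicate number as a block 8 were higher and 3 lower. Of the genes named below, Add1, Add2, Enah, Pfn3, Arpc5, Limk2, Tnnc2 and Tnni1 missed the threshold with this block. Their adjusted p (limma with the block) lay between 0.0519 for Limk2 and 0.185 for Add1. Without WT replicate 1, WT replicate 2, null replicate 4 or null replicate 5 the count of lower genes was 6. Markers of Sertoli cells, the somatic cells that hold the spermatid head in an actin-rich junction, were higher for 7 of 9 measured genes. Their mean ranged from 9.93 to 10.09 in WT and from 10.21 to 10.36 in null samples. Of 5 measured Leydig cell markers 3 were higher, with means of 10.83 to 11.40 and 11.29 to 11.63. The part of either cell type in the values of the lists was not tested.

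Of the pointed-end partners, 1 of 6 tropomyosins and leiomodins rose and none fell, with a list median of 0.22. Tpm4, a tropomyosin of non-muscle filaments, had log2 signals of 8.93 to 9.36 in WT and 9.48 to 9.83 in null samples, without overlap, and rose by 0.53 (standard error 0.10, adjusted p = 0.0094). Tpm3, another tropomyosin, had 0.22 (adjusted p = 0.0834), and on its other detected probe sets 0.13, 0.08, -0.07 and -0.04. Lmod1, a smooth muscle leiomodin that nucleates filaments, had 0.22 (adjusted p = 0.0895). Among 17 other barbed-end cappers and severing proteins 2 rose and 1 fell (list median 0.16, or 0.08 on the brightest probe sets). Capza3, a further alpha subunit of capping protein, was named after its value was seen. Its means were 13.29 in WT and 13.27 in null samples (log2 fold change -0.01, adjusted p = 0.901). Eps8, a capping and bundling protein of the Sertoli cell junction, rose by 0.56 (standard error 0.06, adjusted p = 7.24e-04), from 8.24 to 8.38 in WT to 8.74 to 8.99 in null samples. Its other detected probe sets had 0.51 (adjusted p = 7.94e-04) and 0.15 (adjusted p = 0.2625). Add1 and Add2 encode the alpha and beta adducins, which cap barbed ends in the membrane skeleton. Add2 fell by 0.62 (adjusted p = 0.0060), although its other probe sets, at -0.46 and -0.15, did not pass, and Add1 rose by 0.27 (adjusted p = 0.0494), a call that was lost when any 1 of 8 arrays was left out and under median centring. Among 12 regulators of capping protein 2 rose and 1 fell (list median 0.09, or 0.02 on the brightest probe sets). Cd2ap, which binds capping protein directly, rose by 0.48 (adjusted p = 0.0045), and had 0.33 (adjusted p = 0.0260) and 0.18 (adjusted p = 0.111) on its other detected probe sets. Plekho1, also a binder of capping protein, fell by 0.42 (adjusted p = 0.0073). Enah, which keeps barbed ends growing, rose by 0.33 (adjusted p = 0.0044) on 1424800_at, whereas its brightest probe set had -0.00.

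Among 11 other actin-like and actin-related genes none rose and 1 fell (list median -0.10). This was Actl10, an actin-like gene, which had log2 signals of 9.44, 9.55, 9.50 and 9.29 in WT and 8.76, 8.76, 8.76, 8.72 and 8.75 in null samples. The groups did not overlap, and the log2 fold change was -0.70 (SE 0.06, adjusted p = 1.49e-04). Actl6a, a subunit of chromatin remodellers, had -0.17 (adjusted p = 0.134), and Actrt1, of the sperm head, had -0.20 (adjusted p = 0.220). Of 16 genes of the perinuclear theca, the acroplaxome and sperm head shape 1 fell and none rose (list median -0.08, or -0.04 on the brightest probe sets). Pfn3, a profilin of spermatids, fell by 0.30 (adjusted p = 0.0282), and the call was lost when any 1 of 7 arrays was left out. Pick1, needed for acrosome formation, had -0.42 (adjusted p = 0.0506) and on another probe set -0.02. Zpbp, an acrosomal protein, had -0.21 (adjusted p = 0.0863).

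None of 6 actins passed, with 0.09 for Actb, 0.10 for Acta2 and -0.06 for Actg2 (adjusted p from 0.273 to 0.449). None of 7 genes of dynactin, whose short actin-like filament is closed by capping protein, passed. Actr1a, which builds that filament, had -0.32 (adjusted p = 0.0557) but -0.01 on its brightest probe set, and Dctn4, a dynactin subunit, had -0.17 (adjusted p = 0.0785) and 0.05 on its brightest. Dctn3, another subunit read by 1 probe set, had -0.24 without overlap between the groups (adjusted p = 0.0718). Of 6 genes of the Arp2/3 complex, which starts branches, Arpc5 rose by 0.28 (adjusted p = 0.0325), a call lost when any 1 of 7 arrays was left out and under median centring. Of 18 genes of monomer binding and filament turnover 1 rose and 1 fell. Wdr1, a cofactor of cofilin, rose by 0.43 (adjusted p = 0.0050) on 1450851_at and had -0.02 and 0.01 on both brighter probe sets. Limk2, a kinase that inactivates cofilin, fell by 0.41 (adjusted p = 0.0166), although its other detected probe sets, at -0.18 and 0.10, did not pass. Formins and nucleators, which build unbranched filaments, moved both ways, with 3 of 15 higher and 3 lower. This was 20% each way, beside 8.03% higher and 6.82% lower over all measured genes, a difference that was not tested. The 6 genes ranged from 0.63 for Diaph2 (adjusted p = 0.0011) to -0.34 for Fmnl1, the latter named after its value was seen. Of 12 genes of the spectrin and adducin membrane skeleton, to which Tmod1 belongs in red cells, 3 were higher (25%) and 1 was lower (8.33%). The higher genes were led by Epb41l3 with 0.40 (adjusted p = 0.0066), whose other detected probe set had 0.36 (adjusted p = 0.0704). The lower gene was Ank1 with -0.47, also named after its value was seen.

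Because Tmod4 is best known from striated muscle, 23 sarcomere genes were read as well. Of these, 2 rose (8.70%), 1 fell (4.35%) and 20 did not pass, beside 8.03% higher and 6.82% lower over all measured genes, with a list median of 0.04. Myoz2, a protein of the Z-disc, had log2 signals of 7.97, 8.14, 8.06 and 7.70 in WT and 9.27, 8.98, 8.82, 8.96 and 8.90 in null samples. It rose by 1.02 (standard error 0.11, adjusted p = 6.45e-04), opposite to Tmod4. Tnnc2, the calcium-binding troponin of fast muscle, had 7.46, 7.58, 8.06 and 7.53 in WT and 6.87, 7.24, 6.92, 6.89 and 7.05 in null samples, and fell by 0.66 (standard error 0.12, adjusted p = 0.0114). Tnni1, the inhibitory troponin of slow muscle, rose by 0.49 (adjusted p = 0.0444) with overlapping groups, and the call was lost when any 1 of 7 arrays was left out and under median centring. Of 10 markers of skeletal muscle fibres, most of them also among the sarcomere genes, 1 passed. This was Tnnc2, already counted above, and the median over the list was -0.11. Their mean lay between 6.04 and 6.27 in WT and between 5.81 and 6.13 in null samples. Myl1, a light chain of fast myosin, had -0.51 without overlap between the groups (adjusted p = 0.0571), Myh4, a heavy chain of fast myosin, -0.30 (adjusted p = 0.211) and Mylpf, another fast light chain, -0.13 (adjusted p = 0.216). Acta1, the actin of skeletal muscle, differed by -0.02, and Ckm, the muscle creatine kinase, by 0.04. The WT means of Acta1, Ckm and Myh4 were 5.51, 5.91 and 4.82, near the detection limit of 5, so their differences say little. The other markers of this list were Pvalb with -0.31 (adjusted p = 0.0698), Mb with -0.09, Tnni2 with -0.08 and Tnnt3 with 0.07. All markers of this list but Tnnc2 were named after their values were seen. The part of muscle RNA in the Tmod4 value was not tested.

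**Figure D4:**
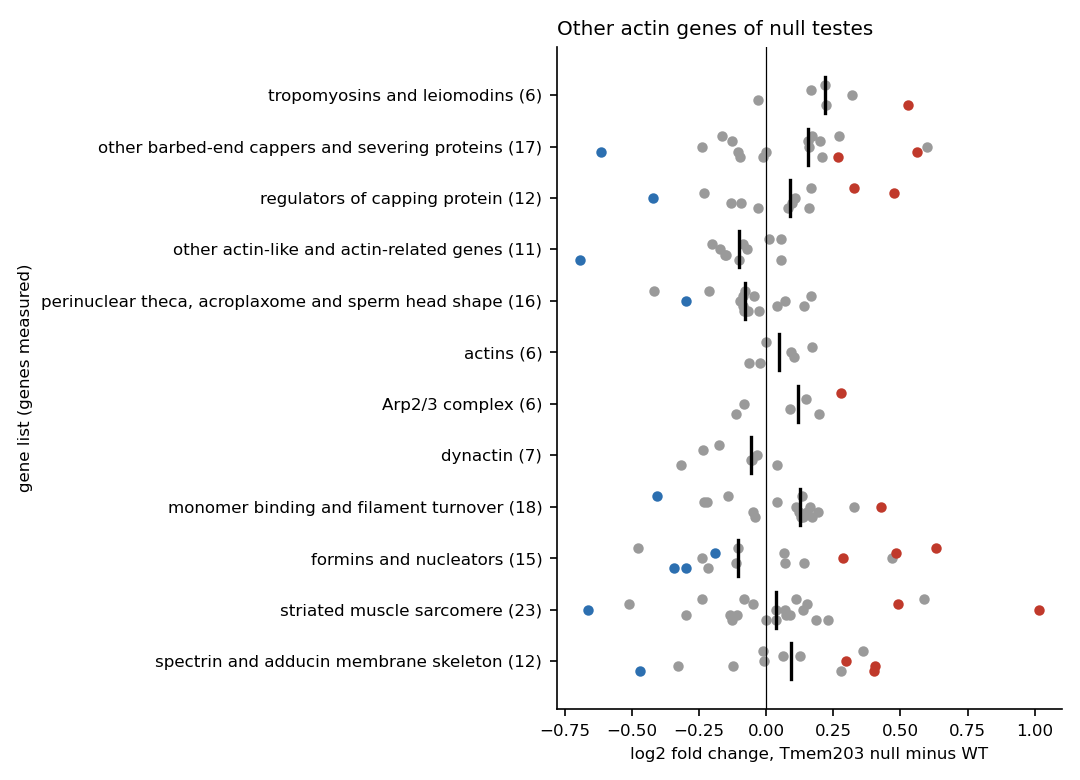
Log2 fold change (null minus WT, n = 5 and 4) of the 149 measured genes of the 12 lists, 1 point per gene, red for the 15 higher and blue for the 10 lower genes at an adjusted p under 0.05, grey for the 124 others, with the list median as a black line. Most points lie near 0, and the points farthest out are Myoz2 at 1.02 and Actl10 at -0.70.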

How the data were processed

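RNA of whole testes, 4 WT and 5 Tmem203 null samples, was hybridised to Affymetrix mouse arrays. The authors deposited log2 signals, 1 per probe set and array, after RMA (background adjustment, quantile normalization and summarisation). Submitters' processing notes list limma without a version. The genotypes were contrasted, null minus WT, by limma 3.58.1 in R 4.3.3 (lmFit, eBayes) on 45037 probe sets, without 64 control probe sets, with Benjamini-Hochberg adjustment over all of them. Thresholds follow the methods: adjusted p under 0.05, at least 1.5-fold, log2 signal of 5 or more on some array, and 1 gene. The members and lists were chosen with earlier results of these data known. Named beside the members are up to 3 genes per list with the smallest p, the 5 genes most correlated with Tmod4 and its 2 neighbours on each side. A gene is read through its detected single-gene probe set with the smallest p, which favours larger differences. Probe set genes came from the platform annotation, matched to RefSeq names for 34741 of 34945 single-gene probe sets. Promoters were searched with Python 3.11.15. The procedure was tested on simulated data with independent samples and added changes of 1.5-fold or more. That test says nothing on smaller changes. Scan dates were not used here, so batches could not be examined.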

Additional observations from a re-analysis of the deposited data

Results flagged for a closer look

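In 136 groups of samples, 4 held a sample that stood apart by Dixon's ratio, the gap to the nearest sample over the range of the group, where chance alone gives about 1 in 20. None was in a member probe set. For Arpc5 in WT, replicate 3 was the highest at 10.91 against 10.65 for the next (ratio 0.961). For Dctn4 in WT, replicate 2 was the highest at 11.00 against 10.84 (ratio 0.861). For Tnni1 in null samples, replicate 1 was the highest at 7.11 against 6.71 (ratio 0.752). For Pick1 in null samples, replicate 1 was the lowest at 7.88 against 8.30 (ratio 0.714).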

How the results depend on the processing

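The count of member probe sets past the adjusted p and that past 1.5-fold were 1 under every alternative run for them: median centring, a further quantile normalization, trended and robust variances, array weights, detected probe sets only, no probe sets open to cross-hybridisation, the replicate block, each array left out and, for the fold, limma's treat. The log2 fold change of Tmod4 lay between -1.85 and -1.71. For the other 8 genes no alternative gave a call, and 1 sign turned, that of Capza1, at 0.0045 without WT replicate 4, with a range from -0.0399 to 0.0045 over single arrays left out. Between WT and null samples of the same replicate number, deviations from the genotype means had correlations from -0.06 to 0.08 for the 4 numbers. Samples of unlike numbers were not compared, so whether the numbers stand for a shared batch was not tested. With the replicate block, 8 genes of the actin lists were higher and 3 lower, against 15 and 10 without it. Over single arrays left out, the lower count ranged from 6 to 11 and the higher from 11 to 18; the lost calls were not traced to a cause. Trended variances gave 22 higher and 15 lower. Median centring shifted the split to 12 higher and 13 lower. On the brightest probe set, signs turned for Enah (-0.0045), Dctn4 (0.05) and Wdr1 (-0.0195). RMA itself could not be varied, and 9 arrays limit the precision.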
